A study of Mus musculus with 4 samples.

Results

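Transcript levels of 10 genes, 6 Hox genes and 4 regulators that act with them in blood stem cells, were followed in mouse bone marrow with and without Mtg16 (gene symbol Cbfa2t3), an ETO family protein that represses transcription as a partner of DNA-binding factors. The genes were chosen by name, with earlier results of these data known: Hoxa5, Hoxa7, Hoxa9, Hoxa10, Hoxb4, Hoxb5, Meis1, Mecom, Msi2 and Mllt3. All 10 had a probe with a single gene symbol, and all 10 lay in the brighter 50% of probes and so were among the 8445 genes tested. Where a gene had several probes, the one with the highest mean signal over the arrays was used.

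RNA came from the lineage-negative fraction, which remains after magnetic depletion of cells bearing antigens of mature blood lineages. Each sample pooled femur and tibia marrow of 4 female mice aged 8 to 12 weeks, and was hybridised to a single-colour Applied Biosystems array. The 2 wild-type arrays were of C57BL/6 mice, and the 2 null arrays were of Mtg16-null mice at backcross generation N4 into C57BL/6. Each of 2 array lots held 1 array of each genotype. The labels do not describe the null allele or say whether the 2 pools of a genotype held different mice, so the p-values rest on array-to-array spread that may be technical. DNA of the strain in which the null allele was made cannot be told apart from the missing gene, since it goes with the genotype. The study is titled for the role of Mtg16 in stem cell mobilization and progenitor proliferation, and the comparison asks which transcripts differ in marrow without it.

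Deposited signals ran from 28.2 to 3093950 units on a linear scale with a median of 470 units on the arrays, whose value distributions had been made equal before deposit. Probes of 3 genes on the Y chromosome, absent from female mice, read 94.5 to 310 units and show how bright a probe without its transcript can be. Kit, the stem cell factor receptor gene of progenitors, read 34022 to 47408 units on the 4 arrays, while the neutrophil gene S100a9 still read 730356 and 886196 units in depleted wild-type marrow. The Cbfa2t3 probe read 80854 and 100256 units in wild type and 95520 and 118572 in the null arrays. It was not lower in the arrays labelled null (log2 difference 0.24, SE 0.23, limma adjusted p = 0.702). The place of the probe relative to the deletion is not known here, so it checks the labels in neither direction, and each direction below rests on them.

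Hox genes encode homeodomain transcription factors that stand in clusters on several chromosomes, and those at the low-numbered end of a cluster and those at the high-numbered end are used in different cells. In blood, HoxA and HoxB genes are active in stem and early progenitor cells and are shut down as the cells mature. Their proteins bind DNA with TALE homeodomain partners such as Meis1 and Pbx proteins, and chromatin regulators of the MLL and Polycomb groups keep the genes on or off.

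The 10 genes did not move as a block. Hoxb4, Hoxa5, Hoxa7 and Meis1 were higher in the null arrays and Hoxa10, Mllt3 and Msi2 lower, each without overlap of the genotypes, while Hoxa9, Hoxb5 and Mecom overlapped. The differences, null minus wild type on the log2 scale, ran from -0.87 for Hoxa10 to 0.98 for Hoxb4, with a median of 0.06 beside -0.02 over all 8445 genes. None of the 10 passed limma at an adjusted p under 0.05 (0 of 10; smallest adjusted p = 0.144), where 0.118% of all genes passed. At an unadjusted p under 0.05 there were 5 of the 10, 3 higher and 2 lower, against 16.5% of all genes, 9.65% higher and 6.83% lower. Null signals lay above both wild-type signals for 4 of the 10 genes (22.6% of all genes) and below both for 3 (23.1% of all genes). By sign within each lot, 4 of the 10 were higher in both lots (33.6% of all genes) and 5 lower in both (36.8% of all genes). With 10 genes, a single gene moves any of these shares by 10%. Because the genes were chosen with earlier results of these data known, the shares are descriptions and no test of the group.

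**Figure D1:**
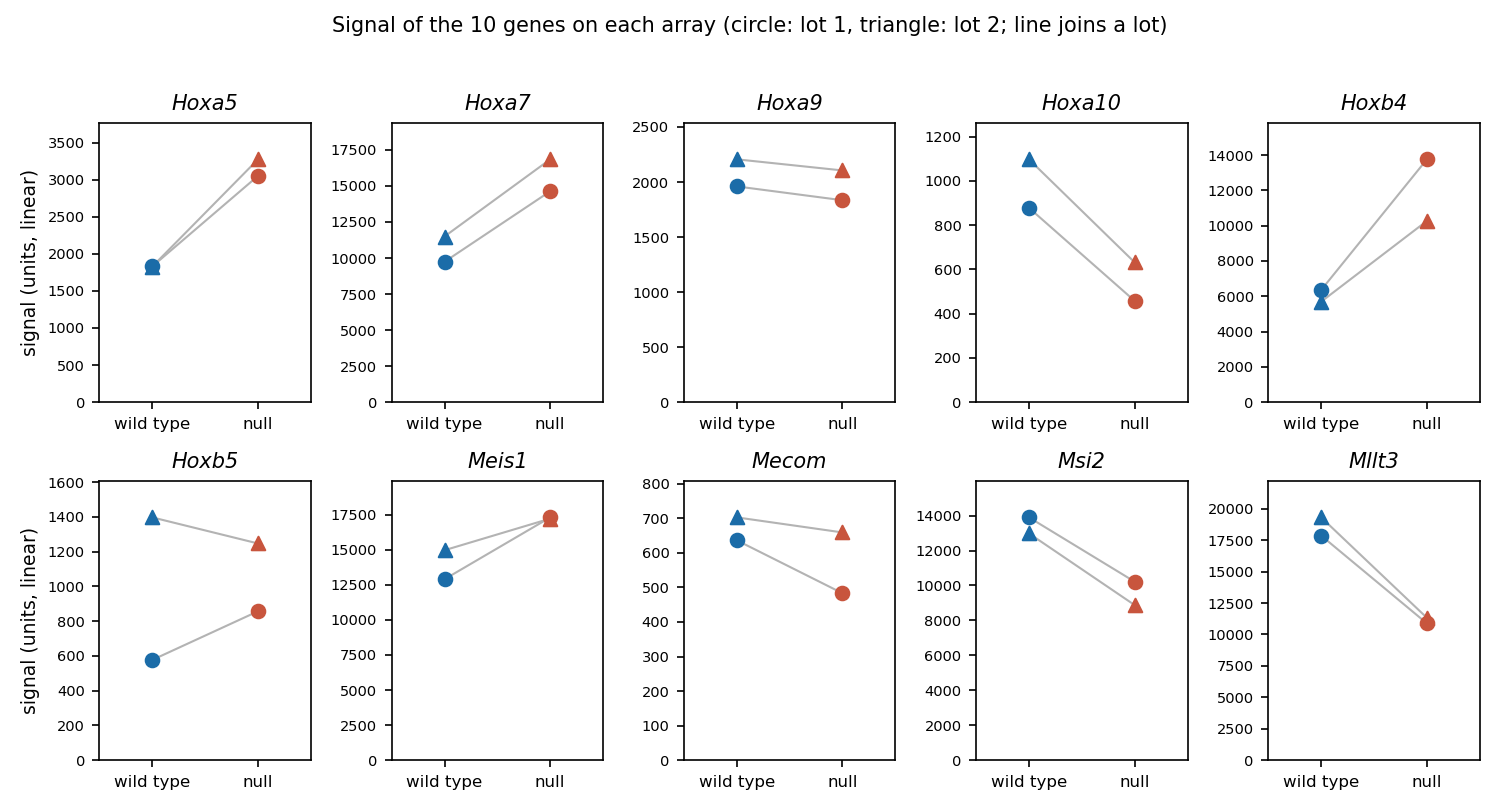
Signal of each of the 10 genes (vertical axes, linear units from 0) on the wild-type and null arrays, with circles for lot 1 and triangles for lot 2, and lines joining the arrays of a lot. In Hoxa5, Hoxa7, Hoxb4 and Meis1 both null points lie above both wild-type points, and in Hoxa10, Msi2 and Mllt3 below them.

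Among the Hox genes, Hoxb4, whose forced expression expands blood stem cells in culture, had the largest difference. It read 6354 and 5691 units in wild type (lots 1 and 2) and 13759 and 10268 in the null arrays. Both null arrays were well above both wild-type arrays, and the null arrays differed more from each other than the wild-type arrays did. The difference was 0.98 (SE 0.23, limma adjusted p = 0.164), a level 1.98-fold higher, with 1.11 in lot 1 and 0.85 in lot 2. Hoxa5, a gene of early progenitors that also favours myeloid over erythroid fate when overexpressed, read 1830 and 1828 units in wild type and 3051 and 3274 in the null arrays. The wild-type arrays were nearly equal and the null arrays 1.73-fold higher (log2 difference 0.79, SE 0.17, limma adjusted p = 0.144; 0.74 and 0.84 in lots 1 and 2). Hoxa7, a cluster neighbour that is also expressed in early progenitors, read 9736 and 11492 units in wild type and 14633 and 16849 in the null arrays. Its lot 2 arrays were the brighter ones in both genotypes, and the difference was 0.57 (SE 0.20, limma adjusted p = 0.287), with 0.59 and 0.55 within the lots.

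Hoxa9 and Hoxa10, the higher-numbered of the HoxA genes followed here, had other values. Hoxa9, the HoxA gene best known for its part in stem cell function and in myeloid leukaemia, read 1960 and 2206 units in wild type and 1834 and 2105 in the null arrays. The genotypes overlapped, and the difference was -0.08 (SE 0.19, limma adjusted p = 0.898) with a 95% interval from -0.60 to 0.44, which leaves room for a difference of about that size in either direction. Hoxa10, a regulator of myeloid and megakaryocyte progenitors, read 878 and 1097 units in wild type and 457 and 631 in the null arrays. Both null arrays were below both wild-type arrays and lot 2 was the brighter lot in each genotype. The level was 1.83-fold lower in null (log2 difference -0.87, SE 0.26, limma adjusted p = 0.238; -0.94 and -0.80 in lots 1 and 2). Hoxb5, a gene used to mark long-term stem cells, read 577 and 1397 units in wild type and 857 and 1247 in the null arrays. It differed more between lots than between genotypes, 2.42-fold in wild type, and its null minus wild-type difference was 0.57 in lot 1 and -0.16 in lot 2 (0.20 over both lots, SE 0.51, limma adjusted p = 0.907).

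The HoxA genes therefore differed from each other within the same arrays. The log2 ratio of Hoxa5 to Hoxa10 was higher by 1.66 in the null arrays, with 1.68 in lot 1 and 1.64 in lot 2, which is a 3.16-fold shift of the ratio. That of Hoxa7 to Hoxa10 was higher by 1.44 and that of Hoxa5 to Hoxa9 by 0.87. These ratios were formed after the values were seen and carry no test. The other HoxA probes show no steady order along the cluster, but the dim ones are partly unresolved from background. Hoxa6, in the dimmer 50% of probes, read 315 and 975 units in wild type and 136 and 491 in the null arrays. It was thus lower in both lots, although it lies between Hoxa5 and Hoxa7. Its lot 1 signals were about as dim as the Y-linked probes, which reached 310 units, so only the lot 2 difference is given (-0.99). Hoxa13, also dim, was higher in both lots. Its wild-type signals of 138 and 162 units were within the Y-linked range, so no fold is given. Hoxa3 had 0.46 in lot 1 and -0.44 in lot 2.

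**Figure D2:**
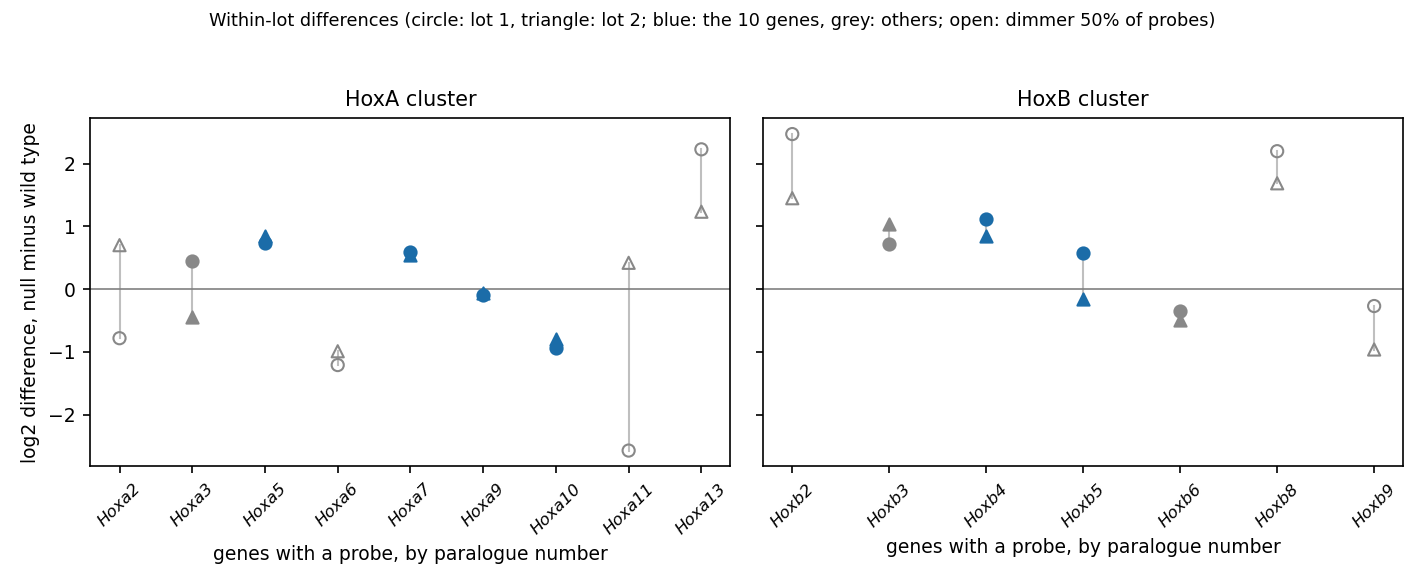
Null minus wild-type log2 difference (vertical axis) of each HoxA and HoxB gene with a probe, in order of paralogue number, with circles for lot 1 and triangles for lot 2, blue for the genes followed here, grey for other Hox genes and open symbols for probes in the dimmer 50%. Hoxa5 and Hoxa7 lie above 0, Hoxa9 at about 0 and Hoxa10 below 0 in both lots. Hoxa6 (open, below 0 in both lots) and Hoxa13 (open, above 0 in both) break that order, but both include signals as dim as the Y-linked probes. Hoxa2, Hoxa3 and Hoxa11 have lots on opposite sides of 0.

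Promoter windows of the 2 genes with the highest and the 2 with the lowest differences are shown because these genes stand at opposite ends of the response. Each is 300 bases long, from 250 bases before to 50 after a transcription start, printed 5′ to 3′ on the gene's strand from RefSeq on GRCm38.p6. Capitals mark matches, on either strand, to any of 6 motifs. TGACAG is bound by Meis and Pknox proteins and TGTGGT by Runx proteins. The E-box CAGCTG is bound by basic helix-loop-helix factors, as is a second E-box with the letters CAGGTG. Factors of the Gata family bind AGATAA, and the letters TATAAA stand for the TATA box. The Hoxb4 window is chr11:96318017-96318316 on the plus strand. The windows of Hoxa5 (chr6:52204538-52204837), Mllt3 (chr4:88033358-88033657, the first of 2) and Hoxa10 (chr6:52234890-52235189, the second of 2) are on the minus strand. For Mllt3 and Hoxa10 the window was picked after the matches were seen. The Hoxa10 window not printed has 0 matches to these motifs, and that of Mllt3 has 1, to TGACAG.
Hoxb4: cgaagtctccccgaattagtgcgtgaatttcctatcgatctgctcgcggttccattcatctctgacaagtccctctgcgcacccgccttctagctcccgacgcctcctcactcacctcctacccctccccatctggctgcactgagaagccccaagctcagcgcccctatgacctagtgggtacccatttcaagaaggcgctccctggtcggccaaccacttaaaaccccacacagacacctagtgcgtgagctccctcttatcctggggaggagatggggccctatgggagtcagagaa
Hoxa5: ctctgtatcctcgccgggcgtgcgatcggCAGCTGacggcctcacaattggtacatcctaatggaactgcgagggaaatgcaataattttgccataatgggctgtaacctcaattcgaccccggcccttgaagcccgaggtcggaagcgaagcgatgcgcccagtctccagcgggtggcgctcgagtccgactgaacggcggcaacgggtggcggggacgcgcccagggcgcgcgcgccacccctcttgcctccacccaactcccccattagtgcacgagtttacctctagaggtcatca
Mllt3: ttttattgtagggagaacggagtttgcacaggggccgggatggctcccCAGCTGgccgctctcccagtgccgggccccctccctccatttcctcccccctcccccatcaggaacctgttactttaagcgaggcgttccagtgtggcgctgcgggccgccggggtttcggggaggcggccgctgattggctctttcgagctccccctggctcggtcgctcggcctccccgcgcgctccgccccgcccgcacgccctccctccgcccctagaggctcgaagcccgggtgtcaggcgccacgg
Hoxa10: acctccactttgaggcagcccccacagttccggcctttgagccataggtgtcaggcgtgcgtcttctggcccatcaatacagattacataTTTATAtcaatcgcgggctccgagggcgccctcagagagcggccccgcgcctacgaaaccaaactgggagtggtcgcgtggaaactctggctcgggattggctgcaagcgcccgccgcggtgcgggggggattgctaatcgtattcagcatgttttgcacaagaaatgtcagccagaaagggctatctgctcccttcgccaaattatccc

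The E-box CAGCTG occurs in the Hoxa5 window and in that of Mllt3, a gene with the opposite difference, and in 16.3% of all 32851 windows. Over the 14 windows of the 9 genes found in the table, it occurs in 2. TGACAG occurs in 2 of the 14 (19.2% of all windows), TGTGGT in 1, that of Meis1 (16.8%), and TATAAA in 1, the Hoxa10 window shown (13.6%). The Hoxa10 match reads TTTATA, so it is on the opposite strand, and its first base lies 160 bases before the start. It is a match of letters and is not shown to be a working TATA box. CAGGTG and AGATAA have 0 matches in the 14 windows, against 20.2% and 11.2% of all windows. The windows of Msi2 overlap for most of their length, so the 14 are not separate stretches of DNA. The Hoxb4 window, of the gene with the highest difference, has no match to any of the 6. The number of CpG dinucleotides ranges from 4, in the Hoxa9 window and a second Mllt3 window, to 39 in a window of Msi2. The median over all windows is 7, and only the windows with 4 lie below it. A match is a description of the letters and not of binding, and which start each probe reads from is not known here.

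Of the regulators, Meis1, the TALE homeodomain partner of Hox proteins that is needed for stem cell maintenance, read 12898 and 14966 units in wild type and 17308 and 17221 in the null arrays. The null arrays were nearly equal and above both wild-type arrays. The difference was 0.31 (SE 0.18, limma adjusted p = 0.501), with 0.42 and 0.20 in lots 1 and 2, and did not pass. Its 95% interval ran from -0.18 to 0.81.

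Mllt3, also called AF9, a reader of acetylated and crotonylated histones that brings elongation factors to Hox genes and supports stem cell self-renewal, read 17862 and 19313 units in wild type. In the null arrays it read 10879 and 11325 units, and the 2 arrays of each genotype lay close together. The level was 1.67-fold lower in null (log2 difference -0.74, SE 0.17, limma adjusted p = 0.161), with -0.72 and -0.77 in lots 1 and 2. The log2 ratio of Meis1 to Mllt3 was higher by 1.06 in the null arrays, 1.14 in lot 1 and 0.97 in lot 2. This ratio too was formed after the values were seen, restates the 2 differences and carries no test.

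Msi2, an RNA-binding protein that controls translation in stem cells and sustains their self-renewal, read 13900 and 12982 units in wild type and 10217 and 8877 in the null arrays. Both null arrays were below both wild-type arrays, with a difference of -0.50 (SE 0.18, limma adjusted p = 0.307; -0.44 and -0.55 in lots 1 and 2). Mecom, the locus of the zinc finger factor Evi1 that is required by long-term stem cells, read 636 and 703 units in wild type and 483 and 659 in the null arrays. The genotypes overlapped (log2 difference -0.24, SE 0.23, limma adjusted p = 0.707; -0.40 and -0.09 in lots 1 and 2). A second Mecom probe read 55.2 to 186 units, no brighter than the Y-linked probes, and it gives no usable level.

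**Figure D3:**
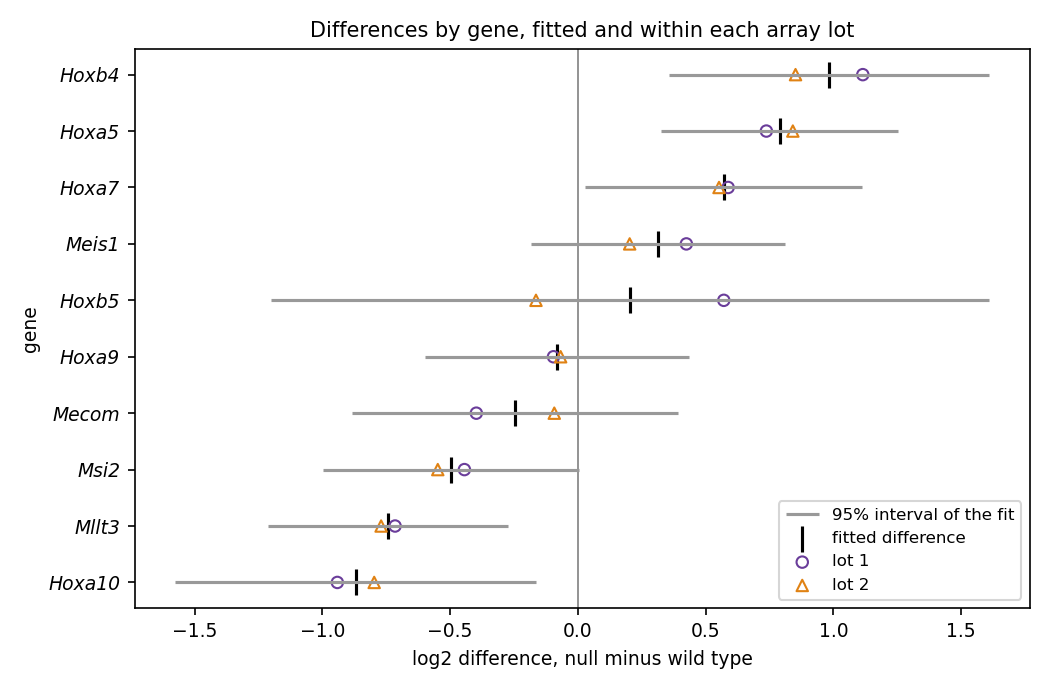
Null minus wild-type log2 difference (horizontal axis) of each of the 10 genes, with a black bar for the fitted value, a grey line for its 95% interval, a circle for lot 1 and a triangle for lot 2. In the main fit the interval lies beyond 0 for 5 genes, Hoxb4, Hoxa5 and Hoxa7 above it and Mllt3 and Hoxa10 below it. Only Hoxb5 has lots on opposite sides of 0.

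With the array lot as a block the differences are the same and the errors smaller. Then 6 of the 10 had an unadjusted p under 0.05, against 24.3% of all genes, Msi2 being the one added. Still 0 of the 10 passed after adjustment (smallest limma adjusted p = 0.117, for Hoxa10), and neither did any of the 8445 genes.

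Other genes of the same machinery were read from lists. Of the other 33 Hox genes, 24 had a probe and 10 were bright enough to test. Of these 10, 0 passed limma after adjustment and 0 at an unadjusted p under 0.05 (16.5% of all genes). The median difference was -0.03. Hoxb3, beside Hoxb4 in the cluster, read 1014 and 1460 units in wild type and 1663 and 2994 in the null arrays, so that the genotypes did not overlap (0.88, SE 0.38, limma adjusted p = 0.387). Hoxc4, a paralogue of Hoxb4, read 2533 and 3496 units in wild type and 3643 and 4806 in the null arrays (0.49, SE 0.27, limma adjusted p = 0.482). Hoxc13 (-0.70) and Hoxb6 (-0.43) had the lowest values that kept their sign in both lots, with overlapping genotypes.

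Of the other 10 TALE genes, 4 were tested and 0 passed. Pbx3, a Hox partner that acts with Meis1 and Hoxa9 in leukaemia, read 5029 and 5441 units in wild type and 3422 and 2950 in the null arrays (-0.72, SE 0.19, limma adjusted p = 0.198). Pknox1, a Meis relative that competes for Pbx partners, read 992 and 946 units in wild type and 1431 and 1415 in the null arrays (0.56, SE 0.17, limma adjusted p = 0.243). The genotypes thus stood apart for both, in opposite directions, while Tgif2 had 0.11 with overlap. Over all genes, 22.6% stood apart with null higher and 23.1% with null lower.

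Of 16 genes of the MLL and elongation complexes, which keep Hox genes active and to which Mllt3 belongs, 9 were tested and 0 passed. At an unadjusted p under 0.05 there were 0, against 16.5% of all genes. Differences of these 9 lay between -0.30, for the cyclin gene Ccnt1, and 0.46, for the MLL core subunit gene Rbbp5, with a median of -0.03. Psip1, which tethers MLL to chromatin, had -0.24, and Mllt1, the close relative of Mllt3, had 0.16 with overlapping genotypes.

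Of 17 Polycomb genes, whose products silence Hox loci, 11 were tested and 0 passed, with a median of 0.02. Phc3 read 1854 and 1850 units in wild type and 1145 and 1098 in the null arrays (-0.72, SE 0.17, limma adjusted p = 0.161). Cbx8 read 1904 and 1873 units in wild type and 3075 and 2817 in the null arrays (0.64, SE 0.17, limma adjusted p = 0.208). These 2 subunits of the first Polycomb complex were thus apart between genotypes in opposite directions. Of the 11 tested, 3 had both null signals above both wild-type signals (22.6% of all genes) and 2 below (23.1% of all genes). The paired E3 ligase genes of that complex also had opposite signs, 0.51 for Rnf2 and -0.41 for Ring1.

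Of 18 stem cell transcription factor genes, 11 were tested and 0 passed. At an unadjusted p under 0.05 there were 3, all higher in null, against 9.65% of all genes higher at that level. Fli1, an ETS factor of stem cells and megakaryocytes, read 4879 and 4763 units in wild type and 9316 and 9762 in the null arrays (0.98, SE 0.17, limma adjusted p = 0.108). Hmga2, a chromatin protein of fetal stem cells, read 1047 and 810 units in wild type and 1965 and 2029 in the null arrays (1.12, SE 0.21, limma adjusted p = 0.123). The other was Hhex, a homeobox gene of early progenitors (1.00), named after its value was seen. Tal1 and Lmo2, partners in a blood stem cell and erythroid complex, had -0.31 and -0.20. Of 6 genes around the Musashi proteins, 2 were tested. Msi1, the relative of Msi2, read 531 and 687 units in wild type and 882 and 996 in the null arrays (0.63, SE 0.22, limma adjusted p = 0.284), opposite in sign to Msi2.

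Some genes followed Hoxb4 or Hoxa10 closely over the 4 arrays. By the root mean square distance between log2 values centred on each gene's mean, the 3 genes nearest to Hoxb4 were Fkbp1a (0.04), Map3k5 (0.04) and Lpar6 (0.05), whose own differences were 0.98, 1.03 and 1.06. Those nearest to Hoxa10 were Fer (0.04), Sepsecs (0.06) and Hspb6 (0.06), with differences of -0.90, -0.76 and -0.86. Differences close to that of Hoxb4 or Hoxa10 follow from choosing genes by this distance. Within a distance of 0.1 there were 15 genes for Hoxb4 and 17 for Hoxa10 among 8444, so likeness over 4 arrays picks out few genes but rests on 4 points.

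Marker genes of several blood lineages stood apart between genotypes on the same arrays. Of 13 late neutrophil genes, 7 fell with limma after adjustment (0.118% of all genes): Ltf (log2 difference -5.41), Retnlg (-5.21), Ngp (-4.87), Camp (-4.40), Cd177 (-3.97), S100a9 (-3.41) and Chil3 (-3.15). None of them passed with the array lot as a block or without the filter on dim probes (0 genes each). Leaving out any 1 of the 4 arrays also gave 0, with the spread then taken from 1 genotype alone. The summed signal of the list was 1377337 to 1492275 units in wild type and 161636 to 172779 in the null arrays. Ltb4r1 was the member with the highest difference, 1.09. All 13 tested erythroid genes were lower in both lots (36.8% of all genes) and 0 passed (median -1.06, Kel -1.77, Ermap -1.73). Their summed signals were 2253006 to 3191402 units in wild type and 1382346 to 1585799 in null. A few very bright genes made up most of this sum and of the neutrophil sum. All 9 tested early lymphoid and B lineage genes were higher in both lots (33.6% of all genes) and 0 passed (median 1.06, Vpreb1 1.62, Dntt 1.56). Their summed signals were 60209 to 71044 units in wild type and 130724 to 134520 in null. In pooled marrow a smaller share of a cell type and less RNA per cell cannot be told apart, and the part of cell makeup in the values of the 10 genes was not tested.

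Surface markers of stem and multipotent cells, in which HoxA and HoxB genes are active, had a median of 1.33 over 5 tested. In both lots 3 of them were higher (33.6% of all genes) and 2 lower (36.8% of all genes). After adjustment 0 passed with limma. At an unadjusted p under 0.05 there were 4, 3 higher and 1 lower, against 9.65% and 6.83% of all genes. Slamf1 (1.94), Cd34 (1.48) and Cd48 (1.33, named after its value was seen) were the higher ones, and Eng (-0.65) and Kit (-0.19) were lower, with overlapping genotypes for Kit. Of 7 stroma and endothelium markers, 0 passed, and 5 were higher (33.6% of all genes) and 1 lower (36.8% of all genes) in both lots. Tek, 1 of the 5 higher, read 184 and 263 units in wild type, as dim as the Y-linked probes, and 737 and 967 in null, so no fold is given. Kdr had 1.16, and Col1a1 had -0.76. The summed signal of these 7 was 17936 to 20760 units in wild type and 27018 to 28920 in the null arrays.

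**Figure D4:**
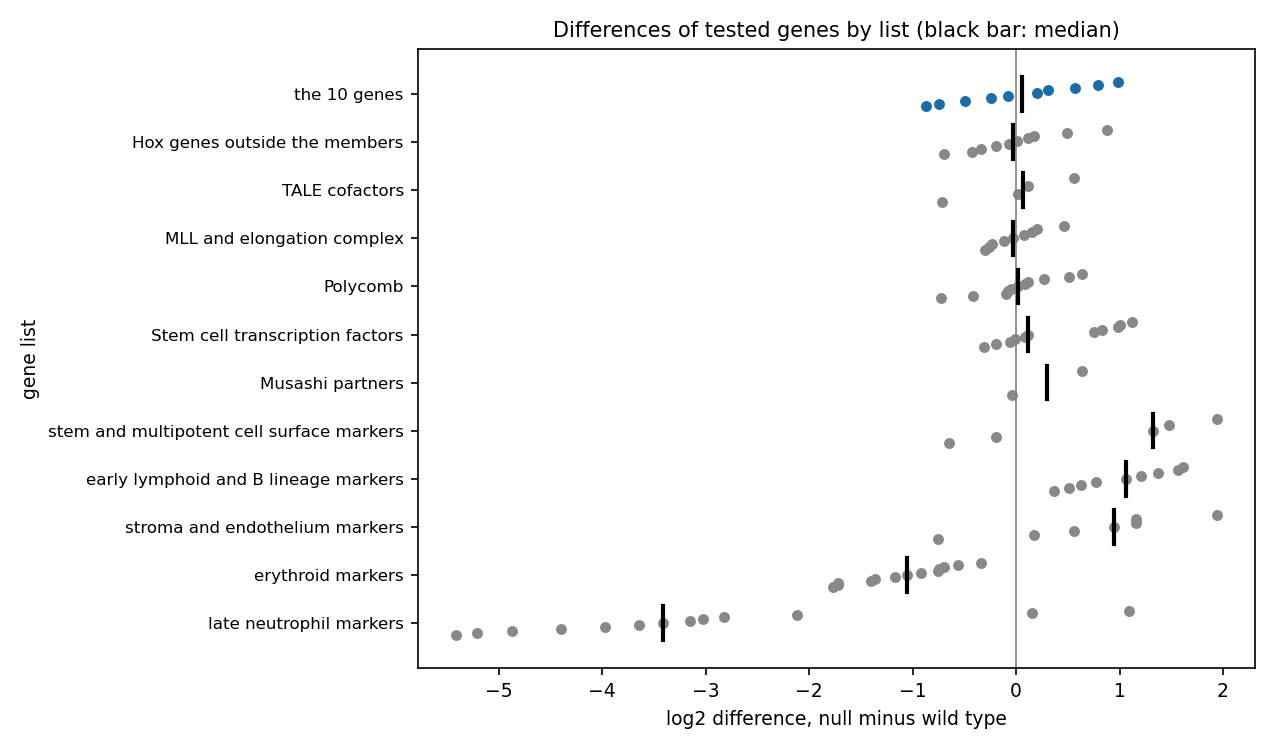
Null minus wild-type log2 difference (horizontal axis) of each tested gene, by list (vertical axis), with a black bar for the list's median and blue for the 10 genes. The 10 genes spread from -0.87 to 0.98 around a median of 0.06, and the late neutrophil genes reach -5.41.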

How the data were processed

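Each of 33012 probes has 1 deposited value per array, an intensity on a linear scale. How the authors scanned the arrays and corrected background, and their detection calls, are not given in the sources used. After sorting, the 4 columns differed by no more than 0.286%, so the deposited intensity had already been quantile normalized, which hides any shift shared by most genes. Precision is limited by the number of arrays. Names came from the platform annotation of the probes: 14411 had 1 symbol, 247 had several and 18354 had none. Signals under the 1st percentile (75.8 units) were set to it and converted to log2, probes in the upper 50% of mean signal were tested, and the brightest probe stood for a gene (8445 genes).

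Null minus wild type was fitted with limma 3.58.1 (lmFit and eBayes, two-sided) in R 4.3.3 on all 4 arrays without further terms, with Benjamini-Hochberg adjustment over the 8445 genes and a threshold of 0.05. There were 2 residual and 2.11 prior degrees of freedom, and a standard error is that of this fit. The replicate number is the array lot, per the series text, and pairs the arrays; deviations of same-numbered arrays from their genotype means correlated at r = 0.50 across genes, which are not independent. Within a lot there is 1 array per genotype and no test. Alternatives were the lot as a block, other filters, floors, scaling, prior and probe choice, and leaving out each array.

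The 10 genes and the lists were chosen with earlier results of these data known. Named were the 10 genes and, from each other list, genes past the threshold and up to 2 per direction with the largest smaller within-lot difference of 1 sign; beside these, the 3 genes nearest to the highest and to the lowest of the 10, and Cbfa2t3. Promoters came from RefSeq (GRCm38.p6; 9 of the 10 genes). Plots were made in Python 3.11.15 with matplotlib 3.10.9.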

Additional observations from a re-analysis of the deposited data

How the results depend on the processing

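Over 13 alternatives, 0 of the 10 genes passed limma in any, and the smallest adjusted p was 0.0578, for Mllt3 with the brightest 25% of probes. Of 125 values of single genes under these alternatives, 121 kept their sign and 4 did not. All 4 changes of sign came with an array left out. Besides that, only cyclic loess scaling changed any of the differences. The other alternatives gave the differences of the main fit again, so the signs kept there say nothing about stability. With an array left out, Hoxa9 ran from -0.18 to 0.018, above 0 without null replicate 1 and without wild-type replicate 2 (0.0037). Hoxb5 ran from -0.43 to 0.84, below 0 without wild-type replicate 1 and without null replicate 2 (-0.067). Testing the brightest 25% left 5 of the 10 genes, of which 3 were higher and 2 lower in both lots; fewer genes tested is the cause of the lower count. Over all genes the count past the threshold, 10, was 0 with the replicate block (array lot), 0 with no filter on dim probes, 295 when the brightest 25% were tested, and 295 when the prior followed a trend in the mean. Leaving out an array gave 0 in each case (lowest and highest 0), in fits whose lone array is assumed to vary like the other genotype and whose spread comes from that genotype alone, so these counts say little about stability. At an unadjusted p under 0.05 those 4 fits without an array had 680 to 1438 genes, the replicate block 2054 and no filter 1512. The cause of the other changes was not tested. The block changed no other call of the 10 genes. Counts by lot have no value without an array. Signals of probes as dim as the Y-linked ones are not resolved.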

Other observations

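Among the 33 Hox genes outside the 10, 14 had a probe in the dimmer 50% and were not tested above. In 5 of the 14 no array read above the 310 units reached by Y-linked probes. In 3, Hoxb8, Hoxb2 and Hoxa13, both null arrays were above that and both wild-type arrays below it. Hoxb8, a factor that holds myeloid progenitors in an immature state, read 84.3 and 123 units in wild type and 387 and 397 in the null arrays. Hoxb2 read 90.9 and 309 units in wild type and 504 and 842 in null, and Hoxa13 read 138 and 162 units in wild type and 645 and 381 in null. These 3 were singled out after their values were seen, and with no filter on dim probes 0 of the 14 passed limma (smallest adjusted p = 0.278; 4 at an unadjusted p under 0.05, beside 10.9% of 13840 genes). The other of those 4 was Hoxc5, which went the opposite way, with 159 and 236 units in wild type and 98.3 and 57.5 in null. Wild-type levels of all 4, and null levels of Hoxc5, are not resolved from background, so no fold is given.

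For some Hox probes the lots stood further apart than the genotypes. Hoxd11 read 308 and 333 units on the wild-type and null arrays of lot 1 and 3635 and 3050 on those of lot 2, and no fold is given since its lot 1 signals were about as dim as the brightest Y-linked reading. Hoxb6 was brighter in lot 1, with 1662 and 1301 units, than in lot 2, with 798 and 565, and within each lot the null array was the lower one (log2 differences -0.35 and -0.50).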
